A study of Rattus norvegicus with 4 samples.

Results

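Islet and epithelial miRNAs were followed in serum exosomes (Exos) of rats, by taking each listed arm of miR-375, miR-200a, miR-200b, miR-200c, miR-141, miR-429, miR-203a, miR-203b and miR-7a. The rule found 11 of the 243 miRNAs listed in the deposited values. They were rno-miR-375-3p, rno-miR-200a-3p, rno-miR-200a-5p, rno-miR-200b-3p, rno-miR-429, rno-miR-141-5p, rno-miR-203a-3p, rno-miR-203a-5p, rno-miR-203b-3p, rno-miR-203b-5p and rno-miR-7a-5p. Small RNA of 4 libraries was sequenced, 2 from treadmill-trained rats (treatment label Exercise, 4 weeks) and 2 from rats without training (treatment label Sedentary). The design text gives 20 rats for each group, the study's methods describe adult male SD rats, and the number of rats behind one library is not given in the sources used here. The Sedentary libraries are titled E-1 and E-2, and the Exercise libraries N-1 and N-2, while the study calls the Exos of trained rats Exe-Exos, so title letters and treatment labels appear to disagree. Which libraries came from trained rats is therefore unsettled, and no direction below can be read as an effect of training. Exercise and Sedentary library here always mean the treatment label. If the letters were right instead, each direction below would turn around while its size would stay the same.

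In rats as in other mammals, miR-375 is a hallmark of pancreatic islets, where it restrains insulin secretion, and it is also made in the pituitary and in endocrine cells of the gut. The miR-200 family is transcribed from a pair of genomic clusters in epithelial cells, where it represses Zeb1 and Zeb2 and so helps to keep the epithelial state. miR-203 belongs to skin and other stratified epithelia, in which it represses the stem cell factor p63. miR-7 is abundant in islets, pituitary and hypothalamus and is bound by the circular RNA Cdr1as.

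Targets of a miRNA are read mainly by its seed, bases 2 to 8 from the 5′ end, so the sequences are shown with the seed in capitals. They are the sequences of the deposited table, written with U. The first is the one member whose groups differed in the test below, and its closest other listed sequence lay 8 edits away.
rno-miR-375-3p: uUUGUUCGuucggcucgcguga

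The miR-200 family sequences show that miR-200b-3p and miR-429 share a seed, whereas the seed of miR-200a-3p is another one.
rno-miR-200a-3p: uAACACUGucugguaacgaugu
rno-miR-200b-3p: uAAUACUGccugguaaugaugac
rno-miR-429: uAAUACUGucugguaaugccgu

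The miR-203 arms are shown because miR-203a and miR-203b are read from opposite strands of one place. The reverse complement of miR-203a-3p holds all 20 bases of miR-203b-5p, and miR-203a-5p and miR-203b-3p overlap in the same way over 20 bases. Despite the shared number, miR-203a-3p and miR-203b-3p have different seeds.
rno-miR-203a-3p: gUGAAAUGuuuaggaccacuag
rno-miR-203b-5p: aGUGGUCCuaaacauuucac
rno-miR-203b-3p: uUGAACUGuuaagaaccacugg
rno-miR-203a-5p: aGUGGUUCuuaacaguucaac

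miR-7a-5p is shown beside miR-7b, which is no member but shares its seed and lies 1 edit away, so reads may have been divided between these names in counting.
rno-miR-7a-5p: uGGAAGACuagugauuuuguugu
rno-miR-7b: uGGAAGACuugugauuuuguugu

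RefSeq's table for the assembly GRCr8 held 8 of the 11 members with the same sequence, and the positions below are from that match, since the authors aligned to another assembly, mRatBN7.2. miR-375-3p lies at chr9:83906591-83906612 on the minus strand, where the precursor gene Mir375 falls inside the span of LOC134480387 and overlaps that of Cryba2, a lens crystallin gene. miR-203a-3p lies at chr6:137020756-137020777 on the plus strand and miR-203b-5p at chr6:137020756-137020775 on the minus strand, between Aspg and Kif26a. miR-200a-5p lies at chr5:171930770-171930790 on the minus strand, inside the span of Ttll10, which also holds Mir200b. miR-141-5p lies at chr4:159209584-159209605 on the minus strand, between Phb2 and Ptpn6 and beside Mir200c. miR-7a-5p matched 2 places, one on chromosome 17 inside the span of Hnrnpk and one on chromosome 1 inside that of LOC120099863. Whether these miRNAs lie in exons or introns was not resolved by the gene table. miR-375-5p, miR-141-3p, miR-200b-5p, both arms of miR-200c and the 3p arms of miR-7a were not analysed here.

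The values are RPM, reads scaled to a common library total,, which the authors name TPM, and the smallest value of a library equals 1 read. The totals lay between 20780612 and 22140315 reads, of which 649210 to 814439 were on listed miRNAs, so a count of 0 allows up to 3 reads, or 0.135 to 0.144 RPM. Intervals and floors cover counting error only, as the reads carry no molecular identifiers. No set of miRNAs defines Exos in these data. miR-486 of red cells and miR-122-5p of liver, common in serum, were above 0 in all 4 libraries.

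Detection was uneven among the members. The plot of reads by member and library shows miR-375-3p at 2631 reads or more, and the other 10 members at 616 reads or fewer.

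**Figure D1:**
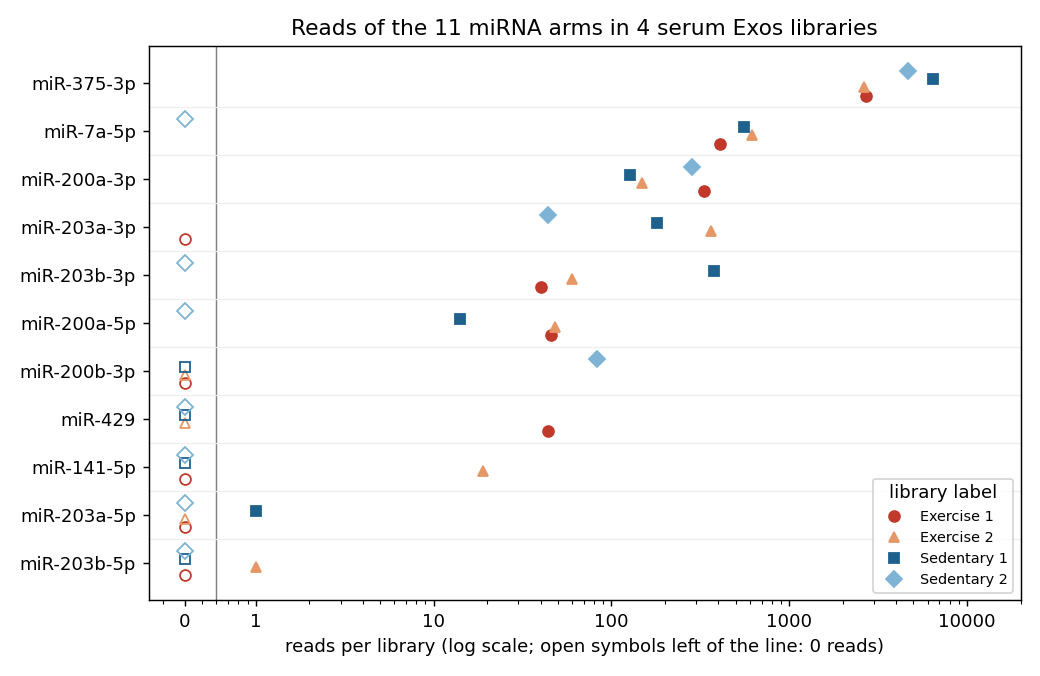
Reads of each of the 11 members (rows, ordered by mean RPM) in each library (symbols), on a logarithmic axis, with open symbols left of the grey line for 0 reads. miR-375-3p lies between 2631 and 6400 reads in all libraries, and 9 of the 11 rows hold at least 1 open symbol.

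Only miR-375-3p and miR-200a-3p were above 0 in all 4 libraries, which held for 42.8% of all listed miRNAs. Another 4 members were above 0 in 3 libraries, and 5 members (45.5%) were above 0 in a single library, against 26.7% of all listed miRNAs. Sedentary 2 detected 4 of the 11 members, Sedentary 1 detected 7, Exercise 1 detected 6 and Exercise 2 detected 8. Of all 243 listed miRNAs, Sedentary 2 detected 152, Sedentary 1 detected 151, Exercise 1 detected 179 and Exercise 2 detected 191. The members other than miR-375-3p summed to 39.8 and 56.7 RPM in the Exercise libraries, a mean of 48.2 ± 11.99 (SD, n = 2). In the Sedentary libraries they summed to 57.2 and 19.8 RPM, a mean of 38.5 ± 26.5 (SD, n = 2), so these sums overlapped. Apart from miR-375-3p, the members therefore showed no separation of the groups in their sum.

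miR-375-3p was lower in the libraries with the Exercise label (N-1 and N-2) than in those with the Sedentary label (E-1 and E-2), and read by the title letters the direction is the opposite one. It held 122.5 and 119 RPM (2692 and 2631 reads) in the Exercise libraries, with a mean of 121 ± 2.59 (SD, n = 2). In the Sedentary libraries it held 291 and 223.2 RPM (6400 and 4638 reads), with a mean of 257 ± 47.7 (SD, n = 2). The groups did not overlap, and the gap between their nearest libraries was 101 RPM. The ratio of the means was 2.13. RPM is a share of the library's reads and does not measure the amount of the miRNA. In a bulk measurement of serum Exos, a change in the vesicles that carry the miRNA and a change in its content per vesicle cannot be told apart either.

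For miR-375-3p the coefficient of variation was 2.15% between the Exercise libraries and 18.6% between the Sedentary ones, where read counting alone would give 1.94% and 1.35%. With 2 libraries a group these spreads are themselves uncertain, and their difference was not tested.

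Of all listed miRNAs, the 178 with reads in 2 or more libraries were compared with limma on log2(RPM + 1), and calls needed an adjusted p below 0.05 together with a change of more than 1 on the log2 scale, up or down. The log2 fold change of miR-375-3p, Exercise against Sedentary label, was -1.07 (standard error 0.19, 95% interval -1.54 to -0.61, limma's Benjamini-Hochberg adjusted p = 0.025). It was the only member called, 1 of the 6 tested, and it was lower. Across all tested miRNAs 2.81% were called lower, 5.06% higher and 7.87% in either direction. The median log2 fold change over all tested miRNAs was 0.21, and -0.10 over the 6 tested members. An exact two-sided permutation test gave p = 0.33 for miR-375-3p, which is the smallest p that 2 libraries against 2 allow.

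The call rested on settings and on single libraries. limma's adjusted p for miR-375-3p was 0.053 without the filter on low values and 0.15 when one variance prior served every miRNA. Without Exercise 1 it was 0.14 and without Exercise 2 it was 0.092, at log2 fold changes of -1.09 and -1.05. Without Sedentary 1 the log2 fold change was -0.88, inside the fold threshold, at an adjusted p of 0.0029 from limma, and without Sedentary 2 it was -1.26. In each of these fits the group with 1 library was assumed to vary like the other.

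Relative to the reads on listed miRNAs instead of the library total, the difference was smaller. miR-375-3p took 0.388% (95% Wilson interval 0.374% to 0.403%) and 0.405% (0.390% to 0.421%) of those reads in the Exercise libraries. It took 0.848% (0.828% to 0.869%) and 0.569% (0.553% to 0.586%) in the Sedentary libraries. The groups again did not overlap, and the ratio of the mean shares was 1.79 against 2.13 for RPM. With median-of-ratios scaling, the log2 fold change was -1.17 (adjusted p = 0.045 from limma).

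**Figure D2:**
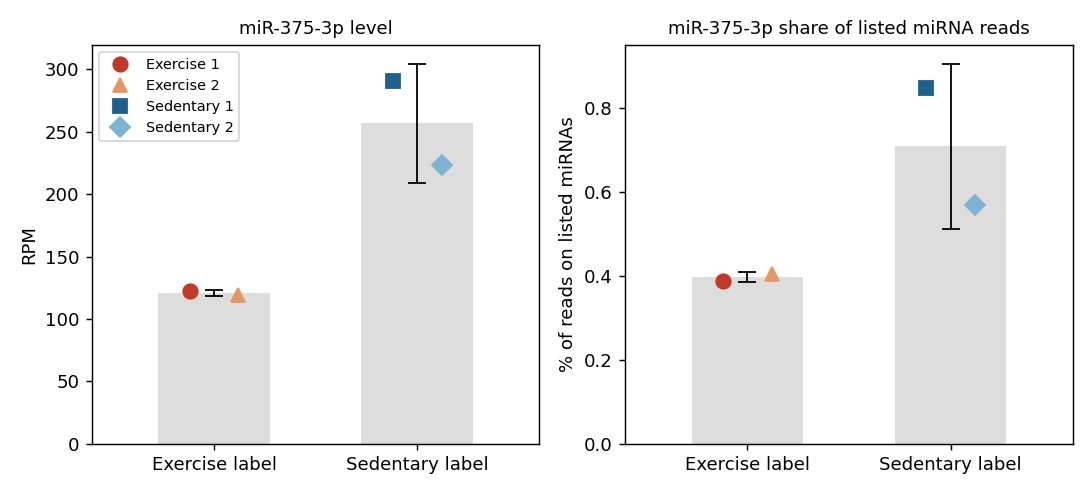
Level of miR-375-3p in RPM (left) and as a percentage of the reads on listed miRNAs (right), for Exercise and Sedentary libraries. Symbols are libraries, grey bars are means and error bars are the SD (n = 2). The Exercise libraries sit at 122.5 and 119 RPM, below the Sedentary ones at 291 and 223.2 RPM, with groups taken from the treatment labels.

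In the order of levels, miR-375-3p ranked 29th and 27th of the 243 miRNAs in the Exercise libraries and 15th and 19th in the Sedentary ones. By its mean over all libraries (189 RPM, SD 83.4, n = 4) it ranked 19th. Its neighbours in that order were miR-28-3p with 193 RPM (SD 73.8, n = 4) above and miR-23a-3p with 183.2 RPM (SD 46.0, n = 4) below, and neither differed from it by more than these spreads. Of the reads on all 11 members, miR-375-3p took 75.5% and 67.7% in the Exercise libraries and 83.6% and 91.8% in the Sedentary ones.

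Profiles across the 4 libraries were compared by the root mean square difference of log2(RPM + 1) after each miRNA's own mean was subtracted, over the 103 other miRNAs above 0 in all libraries. The nearest to miR-375-3p was miR-218a-5p, a miRNA of motor neurons, with 2.82 and 3.52 RPM in the Exercise libraries and 11.2 and 7.75 RPM in the Sedentary ones (distance 0.16). It was followed by the liver miRNA miR-122-5p (0.17), miR-125b-2-3p (0.17), let-7d-5p (0.20) and miR-28-3p (0.23), where the median distance over all candidates was 0.74. The profile plot shows that miR-375-3p shared the higher value in Sedentary 1 with miR-218a-5p, miR-125b-2-3p and let-7d-5p, whereas miR-122-5p and miR-28-3p were higher in Sedentary 2. With 4 libraries, many miRNAs can share a profile, and the distances are given as a description.

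**Figure D3:**
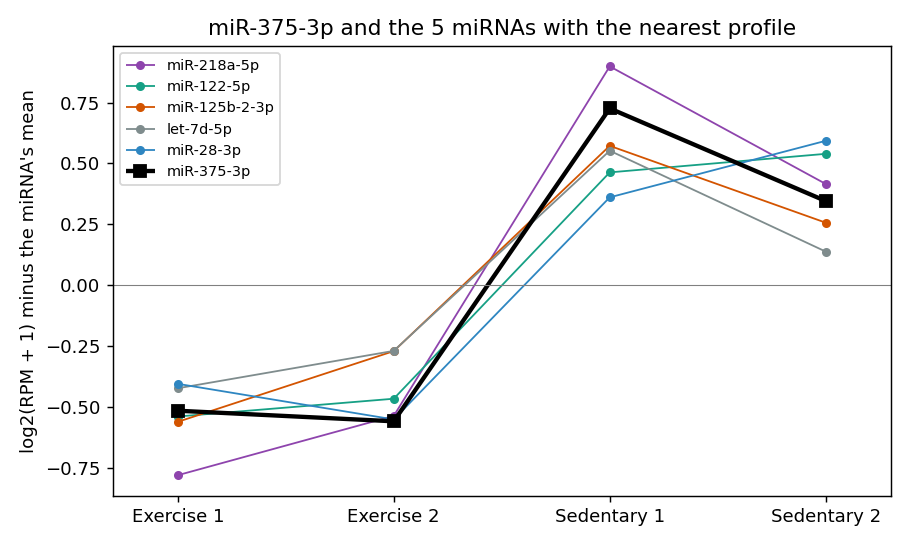
Profiles of miR-375-3p (black squares) and of the 5 miRNAs nearest to it (coloured circles) over the 4 libraries, as log2(RPM + 1) minus each miRNA's mean. Lines only join the points of a miRNA, and all 6 profiles are below 0 in the Exercise libraries and above 0 in the Sedentary ones.

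Some markers of other tissues differed between the groups as well, while others did not. The liver miRNA miR-122-5p held 696 and 732 RPM in the Exercise libraries and 1394 and 1469 RPM in the Sedentary ones, and limma gave it a log2 fold change of -1.003 (adjusted p = 0.017), just past the fold threshold. The red cell list (miR-486, miR-451, miR-144, miR-16) had 6 rows in the values, of which 3 were tested and 0 called by limma. limma voom also called 0, and 2 of the 3 had an unadjusted limma p under 0.05, miR-486 (log2 fold change -0.93, limma's adjusted p = 0.043, inside the fold threshold) and miR-16-5p (2.47). Summed over the list, the Exercise libraries held 5774 and 4806 RPM and the Sedentary ones 8768 and 11317 RPM, nearly all of it miR-486. The other markers of that list did not follow one direction. miR-451-5p was lowest in Sedentary 1 (14.7 RPM) and highest in Sedentary 2 (148.1 RPM), with 54.0 and 70.4 RPM in the Exercise libraries. miR-451-3p had 103 reads in Sedentary 2 and 0 elsewhere, miR-144-3p had 40 reads in Exercise 1 and 0 elsewhere, miR-144-5p had 60 reads in Exercise 2 and 0 elsewhere, and miR-16-5p was at 0 in Sedentary 1. The white cell list (miR-223, miR-142, miR-150) summed to 161 and 146 RPM in the Exercise libraries against 63.6 and 64.8 RPM, and most of that was miR-150-5p of lymphocytes (148.7 and 129.4 RPM against 41.6 and 56.9 RPM), the 1 of its 5 tested rows that was called, as higher. Across all tested miRNAs 5.06% were called higher. The median log2 fold change was 1.37 in the white cell list and 0.21 over all tested miRNAs. miR-223-5p of the same list lay on the other side, at 6.14 and 3.88 RPM against 14.8 and 7.84 RPM, and was not called (adjusted p = 0.45 from limma). The part of these differences in the result for miR-375-3p was not tested.

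Within the miR-200 family, miR-200a-3p was the most abundant arm and did not separate the groups. It held 15.2 and 6.73 RPM in the Exercise libraries, a mean of 10.96 ± 5.99 (SD, n = 2). It held 5.81 and 13.7 RPM in the Sedentary ones, a mean of 9.76 ± 5.59 (SD, n = 2). In each group one library was over 2.2 times the other, and the groups overlapped throughout. The log2 fold change was 0.16 with a 95% interval of -1.73 to 2.05 (adjusted p = 0.89 from limma). A difference within that interval was not detectable here. The direction turned to -0.37 without Exercise 1 and to -0.40 without Sedentary 1.

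The profile nearest to miR-200a-3p was that of miR-192-5p, a miRNA of gut, liver and kidney epithelium (distance 0.26, against a median of 0.68 over 103 miRNAs). miR-192-5p held 115 and 88.9 RPM in the Exercise libraries and 68.5 and 131.5 RPM in the Sedentary ones, so both were lowest in Sedentary 1. The next were miR-1839-5p (0.30), miR-378a-3p (0.34), miR-181d-5p (0.35) and miR-342-3p (0.39). In the order of mean levels miR-200a-3p (10.4 RPM, SD 4.78, n = 4) stood between miR-676 with 10.8 RPM and miR-361-3p with 10.3 RPM, within its spread.

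The other arm of the same precursor, miR-200a-5p, had 46 and 48 reads in the Exercise libraries and 14 and 0 reads in the Sedentary ones. These are 2.09 and 2.17 RPM, a mean of 2.13 ± 0.053 (SD, n = 2), against 0.636 and 0 RPM with a mean of 0.318 ± 0.450 (SD, n = 2). The groups did not overlap, as for 52.2% of all tested miRNAs, and 2 of the 6 tested members. limma did not call the difference (log2 fold change 1.29, 95% interval -0.22 to 2.80, adjusted p = 0.23). The fold change ranged from 0.23 to 4.09 over the other settings, so its size depends on how values near 0 are treated. The 3p arm had 7.26 times the reads of the 5p arm in Exercise 1, 3.10 times in Exercise 2 and 9.14 times in Sedentary 1. In Sedentary 2 the 3p arm had 285 reads beside 0 reads of the 5p arm.

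The remaining members of the miR-200 family were each seen in a single library. miR-200b-3p had 83 reads (3.99 RPM) in Sedentary 2 and 0 in the other 3 libraries. miR-429, which shares its seed, had 44 reads (2.00 RPM) in Exercise 1 and 0 elsewhere. Reads with that seed were thus found once in each group, under different names. miR-141-5p had 19 reads (0.858 RPM) in Exercise 2 and 0 elsewhere, and its partner arm is 2 edits from miR-200a-3p. None of these 3 was tested. Summed over the 5 rows of the family, the Exercise libraries held 19.3 and 9.76 RPM and the Sedentary ones 6.45 and 17.7 RPM, which overlap.

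miR-203a-3p and miR-203b-3p each lacked reads in one library of a different group. miR-203a-3p had 0 and 363 reads (0 and 16.4 RPM) in the Exercise libraries and 180 and 44 reads (8.18 and 2.12 RPM) in the Sedentary ones. The lowest and the highest library both carry the Exercise label. The means were 8.20 ± 11.6 and 5.15 ± 4.28 RPM (SD, n = 2 each), and limma gave a log2 fold change of -0.36 (95% interval -4.17 to 3.45, adjusted p = 0.89). The mean in RPM was higher in the Exercise libraries while the mean on the log2 scale was lower there, and the log2 fold change was 1.70 without Exercise 1, 0.42 without Sedentary 1 and -2.42 without Exercise 2.

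miR-203b-3p had 40 and 60 reads (1.82 and 2.71 RPM) in the Exercise libraries, a mean of 2.27 ± 0.629 (SD, n = 2). It had 380 and 0 reads (17.3 and 0 RPM) in the Sedentary ones, a mean of 8.63 ± 12.2 (SD, n = 2). Here the Sedentary libraries held both extremes. The log2 fold change was -0.40 (95% interval -4.07 to 3.27, adjusted p = 0.89 from limma). Without Sedentary 1 it was 1.69, and without Sedentary 2 it was -2.50 and passed both thresholds (adjusted p = 0.028 from limma), so its direction was set by which library of that group was kept.

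Their partner arms were almost absent. miR-203a-5p had 1 read, in Sedentary 1, and miR-203b-5p had 1 read, in Exercise 2, each at 0 in the other 3 libraries. The library with the read of miR-203b-5p was also the one with most reads of its antisense partner miR-203a-3p, and the read of miR-203a-5p fell in the library with most reads of its antisense partner miR-203b-3p. These are single reads, and a link between them and the antisense arms was not tested. Whether the authors' counting used strand is not given in the sources used here. All 4 arms together had 40, 424, 561 and 44 reads in Exercise 1, Exercise 2, Sedentary 1 and Sedentary 2.

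miR-7a-5p was the second most abundant member by its mean. It held 18.7 and 27.8 RPM (410 and 616 reads) in the Exercise libraries, a mean of 23.2 ± 6.48 (SD, n = 2). In the Sedentary ones it held 25.3 and 0 RPM (557 and 0 reads), a mean of 12.7 ± 17.9 (SD, n = 2). Sedentary 1 thus lay between the Exercise libraries, and Sedentary 2 was at 0. The log2 fold change was 2.21 with a 95% interval of -1.55 to 5.98 (adjusted p = 0.42 from limma). Without Sedentary 2 it was -0.14, and without Sedentary 1 it was 4.57 and was called (adjusted p = 3.3e-07 from limma), which rests on the library at 0. miR-7b, with the same seed, had 39 and 38 reads in the Exercise libraries and 0 in both Sedentary libraries (adjusted p = 0.12 from limma). With both names added, this seed held 20.4, 29.5, 25.3 and 0 RPM in Exercise 1, Exercise 2, Sedentary 1 and Sedentary 2.

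**Figure D4:**
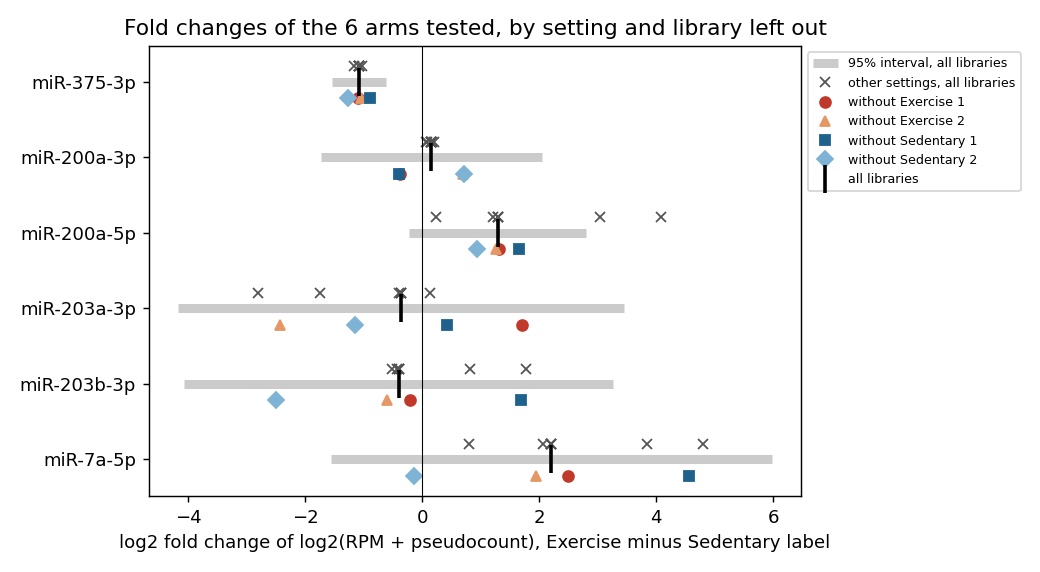
Log2 fold changes, Exercise minus Sedentary label, of the 6 members tested. Black bars show the fit with all libraries and grey bands its 95% interval, crosses the other settings, and coloured symbols the fits that leave out one library. For miR-375-3p all symbols lie between -1.26 and -0.88, while miR-200a-3p, miR-203a-3p, miR-203b-3p and miR-7a-5p have symbols on both sides of 0.

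Reads in one library beside 0 in the other of its group were common in the whole list. In the Sedentary libraries, 167 miRNAs had at least 40 reads in a library, and 33.5% of these were at 0 in the other one. Among the members this was 3 of 6, namely miR-200b-3p, miR-203b-3p and miR-7a-5p. In the Exercise libraries the share was 14.0% of 164 miRNAs, and 2 of 7 members, miR-203a-3p and miR-429. At 100 reads or more the shares fell to 13.2% and 2.63%, with miR-203b-3p and miR-7a-5p in the one group and miR-203a-3p in the other still among them. The members' counts are too few to be set apart from the whole list.

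Other miRNAs of the same tissues were read from lists. Of 15 further neuroendocrine miRNAs, 7 had rows in the values, and of their 6 tested rows 0 were called by limma and 0 by limma voom, while 1, miR-7b, had an unadjusted limma p below 0.05. Their median log2 fold change was 0.31, against 0.21 over all tested miRNAs. The most abundant was miR-128-3p, a neuronal miRNA, with 1077 and 1391 reads in the Exercise libraries and 872 and 599 reads in the Sedentary ones. On the other side of 0 were miR-184, with 115 and 303 reads in the Exercise libraries and 300 and 563 in the Sedentary ones (log2 fold change -1.08, limma's adjusted p = 0.38), and miR-218a-5p, whose groups did not overlap (-1.31, limma's adjusted p = 0.36). Of 13 further epithelial miRNAs, 7 had rows and 5 rows were tested, of which 2 were called higher and 0 lower, with a median of 0.96, where 5.06% of all tested miRNAs were called higher and their median was 0.21. limma voom called 2 as well, and 3 had an unadjusted limma p below 0.05. The called ones were miR-182, with 198.5 and 165 RPM against 76.6 and 103 RPM, and miR-183-5p, with 83.5 and 105 RPM against 35.3 and 36.3 RPM, from one cluster known from sensory epithelia. The most abundant was miR-215, of gut and kidney epithelium, with 1113 and 1173 RPM against 512 and 729 RPM, whose log2 fold change of 0.90 lay inside the fold threshold (limma's adjusted p = 0.043). miR-205 of stratified epithelia had 86 and 35 reads in the Exercise libraries and 52 and 0 reads in the Sedentary ones. Among miRNAs of the exocrine pancreas, miR-217-5p had 10 reads in Exercise 2 and 0 elsewhere. miR-148a-3p, also made in liver, had 2686 and 2439 reads in the Exercise libraries and 1609 and 1840 reads in the Sedentary ones. Of the 2 tested rows of that list, with a median of 1.01, 0 were called by limma and 0 by limma voom, and 1, miR-148a-3p, had an unadjusted limma p below 0.05.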

How the data were processed

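Serum Exos of rats were profiled by small RNA sequencing in 4 libraries. The authors trimmed reads with cutadapt, kept 18–35 nt, aligned them to mRatBN7.2 with Bowtie or Bowtie2, counted them with featureCounts on miRBase and deposited 1 RPM value per miRNA and library, named TPM. All non-zero values (100%) were whole multiples of the library's smallest value within 0.001, which was taken as 1 read. Too few low values were present for count models, so derived reads entered the comparison of groups only through limma voom, as an alternative.

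limma 3.58.1 (R 4.3.3) with a variance prior that follows the mean was fitted to log2(RPM + 1) of miRNAs above 0 in at least 2 libraries, with Benjamini-Hochberg adjustment, and tested on simulated data. Exact permutation tests used SciPy 1.17.1, with Python 3.11.15. Counts of libraries of one group differed beyond sampling noise (chi-square per degree of freedom 44.0 and 147), so none repeats the reads of another, which does not show separate animals. The study describes its replicates in general as biological but gives no number of animals for the sequencing, so p-values measure the spread between these libraries. The members and all lists were chosen with earlier results of these data known. Named were all members, 5 nearest profiles, level neighbours, rows that share a seed, and list members. Alternatives changed the pseudocount, filter, scaling, prior, block and libraries, or used limma voom on derived reads.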

Additional observations from a re-analysis of the deposited data

How the results depend on the processing

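Without the filter on low values 3 miRNAs were called (1 higher, 2 lower in the Exercise libraries) in place of 14 (9 and 5). With a single variance prior 0 were called (0 and 0, against 44 at an unadjusted p under 0.05 with the same fold threshold), and median-of-ratios scaling gave 5 higher calls and 9 lower ones. limma voom called 12. With one library left out, 0 to 39 were called, 0 to 27 higher and 0 to 12 lower; the 0 came without Exercise 1, where 15 passed at an unadjusted p with that fold threshold. miR-375-3p was called under 6 of 8 settings and lost its call without the filter and with a single prior, at the same -1.07; with one library left out it ranged from -1.26 to -0.88. Among values that turned around, miR-203a-3p was 0.13 with pseudocount 10 (exact permutation p = 1 on the RPM scale), and miR-203b-3p was 0.82 with pseudocount 0.1 and 1.77 by limma voom. With one library left out, the ranges were -0.40 to 0.72 for miR-200a-3p, -2.42 to 1.70 for miR-203a-3p, -2.50 to 1.69 for miR-203b-3p and -0.14 to 4.57 for miR-7a-5p. The causes were not tested. The replicate numbers share only a name (correlation of deviations -0.15); the replicate block gave 18 calls and changed no member's call. Depth limits a member at 0 to at most 3 reads, by counting error only. With a filter on a mean of at least 10 RPM, miR-200a-5p, miR-203a-3p and miR-203b-3p were not tested and have no value.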

Other observations

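Muscle and platelet miRNAs were also read. The muscle list (miR-1, miR-133a, miR-133b, miR-206) had 3 tested rows with a median log2 fold change of -0.09, and 0 were called by limma and 0 by limma voom. Of these, 2 had an unadjusted limma p below 0.05 and lay on opposite sides. miR-206-3p, a skeletal muscle miRNA, held 21.9 and 14.8 RPM in the Exercise libraries against 41.6 and 72.9 RPM in the Sedentary ones (log2 fold change -1.56, limma's adjusted p = 0.074). miR-1-3p, of heart and skeletal muscle, held 473 and 435 RPM against 327 and 355 RPM (log2 fold change 0.41, limma's adjusted p = 0.13). The platelet list (miR-126a, miR-199a, miR-223) summed to 85.5 and 74.5 RPM against 79.7 and 76.3 RPM, with a median of 0.34 over 6 tested rows. Of these 0 were called by limma and 0 by limma voom, 2 had an unadjusted limma p below 0.05 (miR-126a-5p and miR-199a-5p), and 2 are also in the white cell list.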
